A study of Bos taurus with 41 samples.

Results

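The 12 libraries described here came from in vitro produced (IVP) bovine conceptuses of gestation day 16, out of 41 libraries in the series (29 of conceptus tissue and 12 of endometrium). They were chosen as every IVP conceptus library, 5 from sections cultured alone for 12 h (IVP mono-culture) and 7 from sections laid on an endometrial explant for 12 h (IVP co-culture). The embryos had been fertilised and grown in vitro with semen of a single Angus bull and transferred to synchronised heifers, and the explants came from cyclic heifers that carried no pregnancy. Both cultures used RPMI medium with dialysed serum, at atmospheric oxygen. The question addressed was how the transcripts of the IVP conceptus differ after contact with endometrium.

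The 12 libraries represent 5 conceptuses. The study's text gives other numbers of mono-culture libraries than the sample labels, and the labels were used. Conceptuses 23, 24, 62a and 62b had libraries of both cultures, and conceptus 37 had a mono-culture library alone. In the co-culture libraries, conceptuses 23 and 24 were each on explants of uteri 14 and 39. Conceptus 62b was on uteri 69 and 70, and conceptus 62a on uterus 69. The series also holds endometrium cultured with conceptus 37, and with 62a on uterus 70, for which no conceptus library was given. Conceptuses 62a and 62b were flushed from the same recipient, so sections of a conceptus, and these sibling conceptuses, were not independent replicates. The title of IVP co-culture replicate 1 (conceptus 24 on uterus 14) gives co-culture whereas its treatment field names medium alone, and it was kept in the group of its title. The libraries labelled mono- and co-culture of conceptus 62a lay out of the order of the others. Whether these libraries were exchanged cannot be told from the labels, so every change given for 62a is that of the libraries as labelled, and main counts are also given without them. The comparison set beside it was the same change in in vivo derived (IVD) conceptuses, from embryos conceived by insemination with the same bull (8 mono-culture and 9 co-culture libraries).

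The day 16 ruminant conceptus is an elongating filament, mostly of trophectoderm, which lies on the uterine epithelium without invading it. The trophectoderm secretes interferon tau, the signal of pregnancy recognition in cattle, and is fed by proteins, sugars, amino acids and lipids from the uterine glands. Secretion on this scale depends on chaperones and on the folding and export machinery of the endoplasmic reticulum (ER).

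Total counts ran from 63556334 to 99701868 in mono-culture and from 59495204 to 94695900 in co-culture. The keratins KRT8, KRT18 and KRT19 of trophectoderm were abundant in every section (KRT8 4654 to 7107 CPM in mono-culture and 6122 to 10950 CPM in co-culture, scaled to total counts, against 63.9 to 435 CPM in the endometrium of the same wells). The endometrial stroma genes DCN and COL3A1 were at or below 2.66 CPM in the 12 conceptus libraries, against 2199 to 3942 and 830 to 1846 CPM in that endometrium. Other stroma genes were higher. LUM reached 78.8 CPM in mono-culture and 7.45 CPM in co-culture, against 49.6 to 177 CPM in endometrium. COL1A1 reached 90.4 CPM in mono-culture and 18.8 CPM in co-culture, against 292 to 1085 CPM. Summed stroma markers (16 of 21 listed genes) were 299 to 1282 CPM in mono-culture, 352 to 682 CPM in co-culture and 6145 to 14890 CPM in endometrium. The co-culture range of this sum lay within the mono-culture range. Summed endometrial epithelium markers (10 of 20 listed) were 46.3 to 207 CPM in mono-culture, 30.5 to 89.2 CPM in co-culture and 659 to 2717 CPM in endometrium. Hypoblast and yolk sac genes (30 of 33 listed) varied widely in both cultures, from 15790 to 42170 CPM and from 11100 to 47940 CPM. Their median change was 1.29 (log2) within conceptus 24 and -0.65 within 62a, and the part of this cell make-up in the gene results was not tested. In bulk tissue, fewer cells of a type and less RNA per cell cannot be told apart.

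No gene passed a false discovery rate (FDR) of 0.05 between the 7 co-culture and 5 mono-culture libraries (0 of 15942 genes tested, 0%, edgeR quasi-likelihood test with Benjamini-Hochberg adjustment, smallest adjusted p 0.142). At an unadjusted p under 0.05 there were 2914 genes, with 1369 higher (8.59%) and 1545 lower (9.69%) in co-culture. Counts of gene lists at that p, given below, stand beside these shares of all genes. DESeq2 placed 327 genes past FDR, whereas limma voom, in which sections of a conceptus were allowed to correlate, placed 0. With the conceptus as a block, which pairs the sections, the count was 0 (smallest adjusted p 0.295), and with sections of a conceptus summed it was 107. The 104 genes selected for their change and named below had adjusted p-values of 0.142 to 0.160 in edgeR. Each of their levels below is thus a measurement and not a called difference in that fit. A call stated for them belongs to the other fit named with it.

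The 4 conceptuses did not move alike. Between co-culture and its own mono-culture section, 1206 of 11078 genes (mean of at least 2 CPM) were more than 2-fold higher and 959 more than 2-fold lower in conceptus 23, 727 and 642 in conceptus 24, and 466 and 1187 in conceptus 62b. In conceptus 62a the numbers were 122 and 315. Across genes, the changes of conceptuses 23 and 62b had a Pearson r of 0.41, those of 24 and 62b of 0.52 and those of 23 and 24 of 0.19, whereas conceptus 62a had an r of -0.03 with 23, -0.16 with 24 and 0.11 with 62b. These are descriptions over 11078 genes that are not independent. Conceptuses 23 and 24 also shared their uteri, and 62a and 62b a recipient and uterus 69.

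The count of called genes depended on conceptus 62a and on a library of conceptus 23. Without both of its libraries, 354 genes passed FDR, 180 higher and 174 lower in co-culture. Without its mono-culture library alone (IVP mono-culture replicate 3) the number was 155, and without its co-culture library alone (IVP co-culture replicate 5) it was 1. The fit without 62a removes the conceptus whose changes differed and does not pair sections, so its calls, which are given below as passing FDR without 62a, are those of that leave-out alone. Of the 104 selected genes 57 passed there, 24 of these 57 also passed with summed sections, and with the conceptus as a block the adjusted p-values were 0.295 to 0.732 (edgeR). The 104 genes were selected for their change in these same libraries, so a pass in that leave-out is not independent support. Leaving out IVP co-culture replicate 2 (conceptus 23 on uterus 14) gave 208, and leaving out any other library or any other conceptus gave 0. Of the 354 genes, 221 were also among the 327 from DESeq2 and 56 among the 107 from summed sections.

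The IVD libraries, which share no section with these, give a gene set that the IVP levels did not choose, although the fit pooled the spread of all 4 groups. In IVD tissue 1009 genes passed FDR, 496 higher and 513 lower on endometrium. In the IVP fit, 490 of the 496 (98.8%) and 499 of the 513 (97.3%) had the same sign, with median log2 fold changes of 0.57 and -0.50 against 0.75 and -0.67 in IVD tissue. The same-sign share over all genes was not counted, and across 11078 genes the IVP and IVD changes had a Pearson r of 0.73. Whether the shares of the called genes exceed that of all genes is therefore not known. Some IVD sections also lay on explants of the same uteri as IVP sections. Within single IVP conceptuses, 95.1% of the 1009 genes went in the IVD direction in conceptus 23, 95.2% in 24 and 96.6% in 62b, with median signed changes of 0.70, 0.59 and 0.77. In conceptus 62a it was 30.5%, with a median signed change of -0.18.

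The library labelled mono-culture of conceptus 62a stood apart from the other mono-culture libraries. Relative to the mean of the 5 mono-culture libraries, the median of these 1009 genes in the IVD direction was 0.39 in the mono-culture section of 62a and between -0.19 and -0.02 in those of 23, 24, 37 and 62b. The library labelled co-culture of 62a, at 0.22, lay below it. Sections of the same conceptus also differed by well. Conceptus 23 reached 0.28 on uterus 14 and 0.72 on uterus 39, conceptus 24 reached 0.72 on uterus 14 and 0.44 on uterus 39, and conceptus 62b reached 0.75 on uterus 69 and 0.65 on uterus 70. Neither uterus 14 nor uterus 39 held the higher section of both conceptuses.

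**Figure D1:**
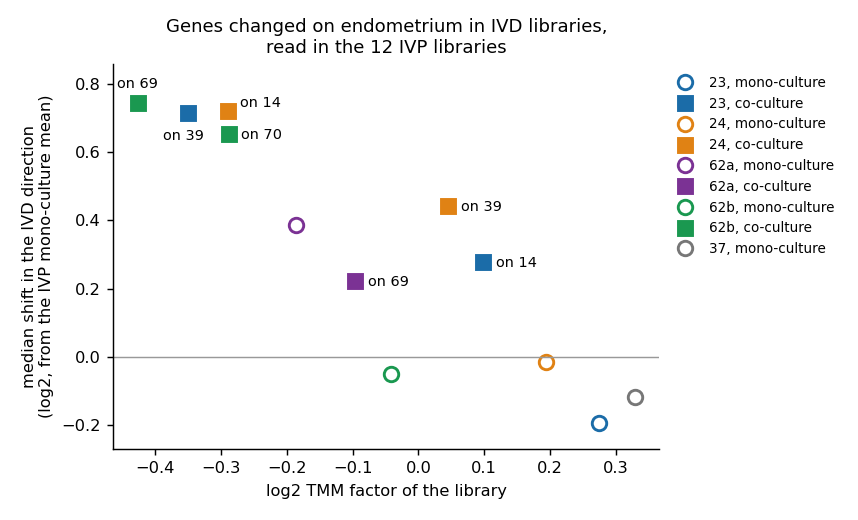
Median shift in the IVD direction of the 1009 genes called in IVD tissue (y, log2, from the mean of the 5 IVP mono-culture libraries) against the log2 TMM factor (x), with open circles for mono-culture, filled squares for co-culture, colours for conceptuses and the uterus beside each co-culture section. The mono-culture section of conceptus 62a sits at 0.39, above the co-culture sections of 62a (0.22) and of 23 on uterus 14 (0.28).

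Library composition moved with the same shift. The trimmed mean of M-values (TMM) factor, which corrects for a few genes taking a larger share of the reads, had a log2 mean of 0.11 in mono-culture and -0.19 in co-culture, a difference of -0.30 (exact two-sided permutation over 12 libraries, p = 0.0404). That test takes sections of a conceptus as separate samples. Paired by conceptus, the change was -0.40, -0.32 and -0.32 in 23, 24 and 62b and 0.09 in 62a, with a mean of -0.24 (SD 0.22, n = 4, exact two-sided sign-flip p = 0.25, where 4 conceptuses allow no p below 0.12). Without 1 of 8 of the 12 libraries the exact p was above 0.05, and over all 12 it ran from 0.0182 to 0.0909, the highest without the mono-culture library of conceptus 37. The lowest factors belonged to co-culture sections of 62b on uterus 69 (-0.43) and 23 on uterus 39 (-0.35), and the mono-culture section of 62a (-0.19) was the lowest of its group. With the factor as a covariate 0 genes passed FDR, and 656 were at an unadjusted p under 0.05. The factor comes from the same counts and its mean differed between cultures, so as a covariate it can take up part of the culture difference. Culture and composition cannot be told apart in that fit, nor in the list medians given below with the TMM covariate.

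Cytosolic and mitochondrial chaperones, which fold new and stressed proteins, had a higher median in each of the 7 co-culture sections than in the mono-culture section of the same conceptus, by 0.10 to 1.04 (log2). Of 38 members, 17 were higher and 1 lower at an unadjusted p under 0.05, and 20 were higher within 4 of 4 conceptuses (10.1% of all genes were). Their median log2 fold change was 0.55 against -0.05 for all genes, and 0.30 with the TMM factor as a covariate. HSPD1, the mitochondrial chaperonin, had 319, 427, 357, 628 and 353 CPM in the mono-culture sections of conceptuses 23, 24, 37, 62a and 62b. In co-culture it had 499 and 1454 CPM for conceptus 23, 1484 and 570.2 CPM for conceptus 24, 655 CPM for conceptus 62a and 1119 and 687 CPM for conceptus 62b. All co-culture sections of 23, 24 and 62b thus exceeded their own mono-culture section, and that of 62a lay close to its mono-culture section. The log2 fold change of HSPD1 was 1.15 (SE 0.26), adjusted p 0.142 in edgeR, and 1.42 with adjusted p 0.0252 without conceptus 62a.

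HSP90AB1, the constitutive cytosolic HSP90, had group means of 2758 CPM (SD 852) and 5481 CPM (SD 1994) in mono- and co-culture (log2 fold change 0.99, SE 0.23). FKBP4, an HSP90 co-chaperone of steroid receptors, had 185 to 543 CPM (median 325) in mono-culture and 341 to 1635 CPM (median 701) in co-culture. The change of FKBP4 within conceptuses 23, 24, 62a and 62b was 1.91, 1.4, 0.37 and 1.63. Both genes passed FDR without conceptus 62a (adjusted p 0.0239 and 0.027 in edgeR) and, like HSPD1, with summed sections (0.0321, 0.024 and 0.031 for HSPD1). The inducible members differed more between wells. DNAJB1, an HSP40 that heat shock factor induces, had 105 and 1452 CPM for conceptus 23, 589 and 307 CPM for conceptus 24, 387 CPM for conceptus 62a and 329.6 and 63.4 CPM for conceptus 62b in co-culture, against 68.8 to 184 CPM (median 124) in mono-culture. The well of 62b on uterus 70 lay below the mono-culture range, and that of 23 on uterus 14 within it. BAG3, a co-chaperone of HSP70 in selective autophagy, and HSPH1, an HSP70 nucleotide exchange factor, were also highest in the wells of 24 on uterus 14 and 23 on uterus 39, with co-culture levels of 71.6 to 1016 CPM (median 195) and 89.2 to 1812 CPM (median 499). Their log2 fold changes were 1.81 (SE 0.59) and 1.80 (SE 0.60), and DNAJB1, BAG3 and HSPH1 did not pass FDR without 62a (adjusted p 0.0865, 0.0925 and 0.1 in edgeR). The cytosolic chaperonin TRiC and its partner prefoldin had 10 of 15 members higher and 0 lower at that p, 12 of them higher within 4 of 4 conceptuses, with a median of 0.52 (0.15 with the TMM covariate). By section, the median of this list differed from the own mono-culture section by -0.11 for 23 on uterus 14 and by -0.10 for 24 on uterus 39, and by 0.39 to 1.06 in the other 5 sections. The TRiC subunits CCT2, CCT3 and CCT4 had log2 fold changes of 0.72 (SE 0.22), 0.56 (SE 0.17) and 0.60 (SE 0.19).

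**Figure D2:**
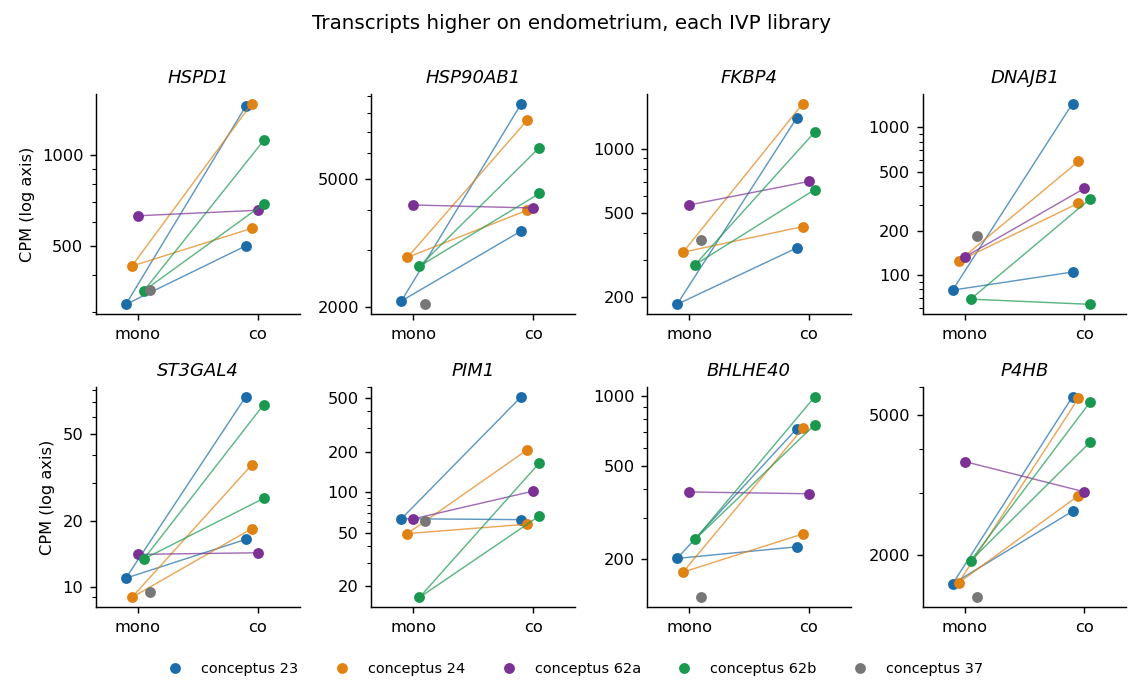
CPM (log axis) of 8 transcripts in the 12 IVP libraries, with mono-culture on the left, co-culture on the right, colours for conceptuses and lines joining each mono-culture section to the co-culture sections of the same conceptus. For HSPD1 the lines of conceptuses 23, 24 and 62b climb and that of 62a is nearly level, with one well of conceptus 23 and of 24 far above the other.

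Genes for folding, quality control and transport in the ER had higher medians in conceptuses 23, 24 and 62b and a level median in 62a. By section, the median of the folding list was above the own mono-culture section by 0.09 (23 on uterus 14) to 1.2 (24 on uterus 14) and differed by -0.02 in 62a. In the ER folding list 19 of 36 genes were higher and 0 lower at an unadjusted p under 0.05, with medians of 0.60, 0.81, 0.00 and 0.80 within conceptuses 23, 24, 62a and 62b. In the list of ER translocation and vesicle export it was 31 of 46 and 0, with medians of 0.42, 0.57, -0.01 and 0.55. The group medians of 0.63 and 0.50 became 0.23 and 0.12 with the TMM covariate. P4HB, a protein disulfide isomerase, had 1649.6, 1661, 1509, 3681 and 1919.6 CPM in the mono-culture sections of conceptuses 23, 24, 37, 62a and 62b. Its co-culture levels were 2656 and 5634 CPM for conceptus 23, 5579.9 and 2943 CPM for conceptus 24, 3017 CPM for conceptus 62a and 5454 and 4191 CPM for conceptus 62b. The mono-culture section of 62a held about as much P4HB as the lower co-culture sections did. P4HB, PDIA3 and PDIA5, also disulfide isomerases, had log2 fold changes of 1.01 (SE 0.28), 0.80 (SE 0.23) and 0.83 (SE 0.24). SEC61A1, the pore of the translocon, had 0.97 (SE 0.26), SRP72, a subunit of the signal recognition particle, 0.69 (SE 0.18), and KDELR2, which returns ER residents from the Golgi, 0.70 (SE 0.20). All 6 passed FDR without conceptus 62a (adjusted p 0.0252, 0.0408, 0.0293, 0.0318, 0.03 and 0.0467 in edgeR). With summed sections SEC61A1 passed (adjusted p 0.0432) and the other 5 did not (0.057 to 0.0938). CALR, the lectin chaperone calreticulin that also serves antigen loading, had a log2 fold change of 1.08 (SE 0.34).

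GFUS, ST3GAL4, SLC27A3 and GGA2 were among the 12 higher genes with the smallest p. GFUS, which makes GDP-fucose for fucosylation, had 20.3, 24.6, 26.3, 30.8 and 22.4 CPM in the mono-culture sections of conceptuses 23, 24, 37, 62a and 62b, and 29.8 and 63.9 CPM for conceptus 23, 53.9 and 29.3 CPM for conceptus 24, 36.7 CPM for conceptus 62a and 64.5 and 42.8 CPM for conceptus 62b in co-culture. Every co-culture section of GFUS exceeded its own mono-culture section, and the groups overlapped through the mono-culture section of 62a alone. Its log2 fold change was 0.88 (SE 0.19). ST3GAL4, a sialyltransferase of the Golgi, had 8.92 to 14.1 CPM (median 10.9) in mono-culture and 14.3 to 74.3 CPM (median 25.4) in co-culture. Every co-culture library was above every mono-culture library for ST3GAL4, as for 25 genes in all (0.157%). The log2 fold change of ST3GAL4 was 1.67 (SE 0.39), and that within conceptus 62a was 0.02. SLC27A3, a fatty acid transport protein with acyl-CoA synthetase activity, had 10.1 to 23.6 CPM (median 14.6) in mono-culture and 20.3 to 54.5 CPM (median 33.8) in co-culture. GGA2, a clathrin adaptor of the trans-Golgi, had a log2 fold change of 0.95 (SE 0.23), with -0.66 within conceptus 62a. The 4 genes passed FDR without conceptus 62a (adjusted p 0.0252, 0.0293, 0.0223 and 0.0223 in edgeR), and with summed sections GFUS and ST3GAL4 passed (0.0142 and 0.0349) and SLC27A3 and GGA2 did not (0.0624 and 0.102).

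PIM1 and PIM3, serine/threonine kinases whose level is set mainly by transcription, had among the largest differences of the genes that went one way within all 4 conceptuses. PIM1 had 63.6, 49.3, 61.6, 63.5 and 16.6 CPM in the mono-culture sections of conceptuses 23, 24, 37, 62a and 62b, and 62.6 and 513 CPM for conceptus 23, 207 and 57.9 CPM for conceptus 24, 102 CPM for conceptus 62a and 165 and 66.7 CPM for conceptus 62b in co-culture. The 4 co-culture sections with the highest PIM1 were the 4 with the highest DNAJB1, and PIM1 was lowest in the mono-culture section of 62b. PIM3 had 37.7 to 105 CPM (median 46.1) in mono-culture and 51.2 to 444 CPM (median 133) in co-culture. Log2 fold changes were 1.72 (SE 0.53) for PIM1 and 1.6 (SE 0.47) for PIM3, of which PIM3 passed FDR without conceptus 62a (adjusted p 0.0467, and 0.0746 for PIM1, in edgeR). With summed sections neither passed (adjusted p 0.0813 for PIM3 and 0.118 for PIM1 in edgeR). UBB, a polyubiquitin gene, had 539 CPM (SD 113) and 1229.8 CPM (SD 596) in mono- and co-culture. HAUS4 of the augmin complex, which nucleates spindle microtubules, had a log2 fold change of 0.74 (SE 0.18), and NT5DC2 had 0.96 (SE 0.24). UBB, HAUS4 and NT5DC2 passed FDR without 62a (adjusted p 0.0386, 0.027 and 0.0252 in edgeR). With summed sections UBB and NT5DC2 passed (adjusted p 0.0302 and 0.0482 in edgeR) and HAUS4 did not (0.06).

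Cytosolic ribosomal proteins, mitochondrial ribosomal proteins and the nuclear-encoded respiratory chain had positive medians in the group comparison (0.57, 0.21 and 0.45). The medians of these 3 lists turned negative with the TMM covariate. Of 82 cytosolic ribosomal protein genes, 64 were higher and 1 lower at an unadjusted p under 0.05, and 48 were higher within 4 of 4 conceptuses. The median was 0.57, within conceptuses 0.65, 0.35, 0.03 and 0.72 for 23, 24, 62a and 62b, and -0.06 with the TMM covariate. RPL3, RPL29 and RPS18 had log2 fold changes of 0.74 (SE 0.25), 0.67 (SE 0.23) and 0.64 (SE 0.22). Nuclear-encoded respiratory chain genes were higher in 33 of 87 cases, lower in 0, and higher within 4 of 4 conceptuses in 64, where the wells of 23, 24 and 62b were averaged. By section, the list median differed from the own mono-culture section by -0.10 for 23 on uterus 14 and by -0.16 for 24 on uterus 39, and by 0.26 to 0.97 in the other 5. Their median was 0.45 and turned to -0.10 with the TMM covariate. They include the ATP synthase subunits ATP5F1C (0.78, SE 0.25) and ATP5F1D (0.68, SE 0.23). COX6B2, a complex IV subunit, had 5.18 to 10.2 CPM (median 7.55) in mono-culture and 10.5 to 16.4 CPM (median 12.2) in co-culture, without overlap. The 13 mitochondrially encoded chain genes had 0 at that p in either direction and a median of -0.25. Of 75 mitochondrial ribosomal protein genes 19 were higher and 2 lower (median 0.21, and -0.07 with the TMM covariate), among them MRPL37 (0.57, SE 0.17) and MRPL50 (0.64, SE 0.20), whose groups did not overlap, and MRPS15 (0.71, SE 0.23).

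Among translation factors 17 of 43 were higher and 1 lower at an unadjusted p under 0.05 (median 0.30, and 0.03 with the TMM covariate). EIF2A, an initiation factor that delivers initiator tRNA, had 90.3 to 140.4 CPM (median 113) in mono-culture and 131 to 235 CPM (median 167) in co-culture and a log2 fold change of 0.63 (SE 0.14). EEF2, which moves the ribosome along the message, had 0.69 (SE 0.19), EIF3I 0.69 (SE 0.20) and the helicase EIF4A2 1.07 (SE 0.31). OLA1, an ATPase of the Obg family, had 0.75 (SE 0.17). EIF2A, OLA1, EEF2, EIF3I and EIF4A2 passed FDR without conceptus 62a (adjusted p 0.0252, 0.0252, 0.0293, 0.0467 and 0.0293 in edgeR), and with summed sections EIF2A and OLA1 passed (0.0432 and 0.0308) and EEF2, EIF3I and EIF4A2 did not (0.106, 0.0607 and 0.1). Aminoacyl-tRNA synthetases had 4 of 23 higher and 0 lower with a median of -0.02, led by QARS1 (0.61, SE 0.18), KARS1 (0.46, SE 0.16) and VARS1 (1.01, SE 0.35). In the nucleolus the histone-binding protein NPM1 and the methyltransferase FBL had 0.68 (SE 0.21) and 0.77 (SE 0.27), and UBTF, the activator of ribosomal RNA genes, had -0.90 (SE 0.29). Proteasome genes had 3 of 38 higher and 1 lower (median 0.21, and -0.07 with the TMM covariate), PSMD13 at 0.43 (SE 0.15). Over all genes 8.59% were higher and 9.69% lower at that unadjusted p.

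Chromatin and transcription coregulators had medians that differed from the own mono-culture section by -0.81 to -0.05 (log2), lower in each of the 7 co-culture sections. In this list 24 of 61 genes were lower and 3 higher at an unadjusted p under 0.05, and 33 were lower within 4 of 4 conceptuses (12.8% of all genes were). The medians were alike in the 4 conceptuses, -0.38, -0.31, -0.33 and -0.31 for 23, 24, 62a and 62b, so here 62a was level with the others. With the TMM covariate the group median moved from -0.30 to -0.18. CREBBP, a histone acetyltransferase and coactivator, had 98.5, 98.9, 86.6, 74.3 and 96.8 CPM in the mono-culture sections of conceptuses 23, 24, 37, 62a and 62b, and 63.9 and 23.3 CPM for conceptus 23, 36.2 and 54.8 CPM for conceptus 24, 41.9 CPM for conceptus 62a and 30.6 and 69.2 CPM for conceptus 62b in co-culture. Each of its co-culture libraries was below each mono-culture library, as were those of 80 genes in all (0.502%). Its log2 fold change was -0.99 (SE 0.22), and within 23, 24, 62a and 62b it was -1.35, -1.15, -0.82 and -1.07.

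EPC1, a subunit of the TIP60 acetyltransferase complex, had the smallest p of the lower genes. It had 24.0, 19.1, 18.6, 16.5 and 20.7 CPM in the mono-culture sections of conceptuses 23, 24, 37, 62a and 62b, and 13.0 and 5.83 CPM for conceptus 23, 9.26 and 13.4 CPM for conceptus 24, 10.5 CPM for conceptus 62a and 7.54 and 12.0 CPM for conceptus 62b in co-culture, again with no overlap (log2 fold change -0.95, SE 0.19). KDM5A, a demethylase of histone H3 lysine 4, had 55.8 to 63.1 CPM (median 59.3) in mono-culture and 21.6 to 50.0 CPM (median 43.0) in co-culture, and ACTR5, a subunit of the INO80 remodeller, had 5.59 to 7.80 CPM (median 6.91) in mono-culture and 2.19 to 4.77 CPM (median 3.81) in co-culture, each without overlap. RPRD1B, which binds the tail of RNA polymerase II, had -0.69 (SE 0.15), and BPTF, of the NURF remodeller, had -0.91 (SE 0.25). SIRT1, a deacetylase that uses NAD, had 25.7 to 64.0 CPM (median 44.1) in mono-culture and 12.8 to 31.0 CPM (median 18.9) in co-culture, and the values overlapped through the mono-culture section of 62a (25.7 CPM) alone. CREBBP, EPC1, KDM5A, ACTR5, RPRD1B, BPTF and SIRT1 passed FDR without conceptus 62a (adjusted p 0.03, 0.0252, 0.0404, 0.0252, 0.0252, 0.0461 and 0.0223 in edgeR). Each also passed with summed sections (adjusted p 0.0142 to 0.0431 in edgeR). For DNA methylation genes 6 of 16 were lower and 2 higher. MBD3 of the NuRD complex and the thymine glycosylase MBD4 had -0.81 (SE 0.25) and -0.60 (SE 0.19), and TET2, which oxidises methylcytosine, had 0.97 (SE 0.33).

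**Figure D3:**
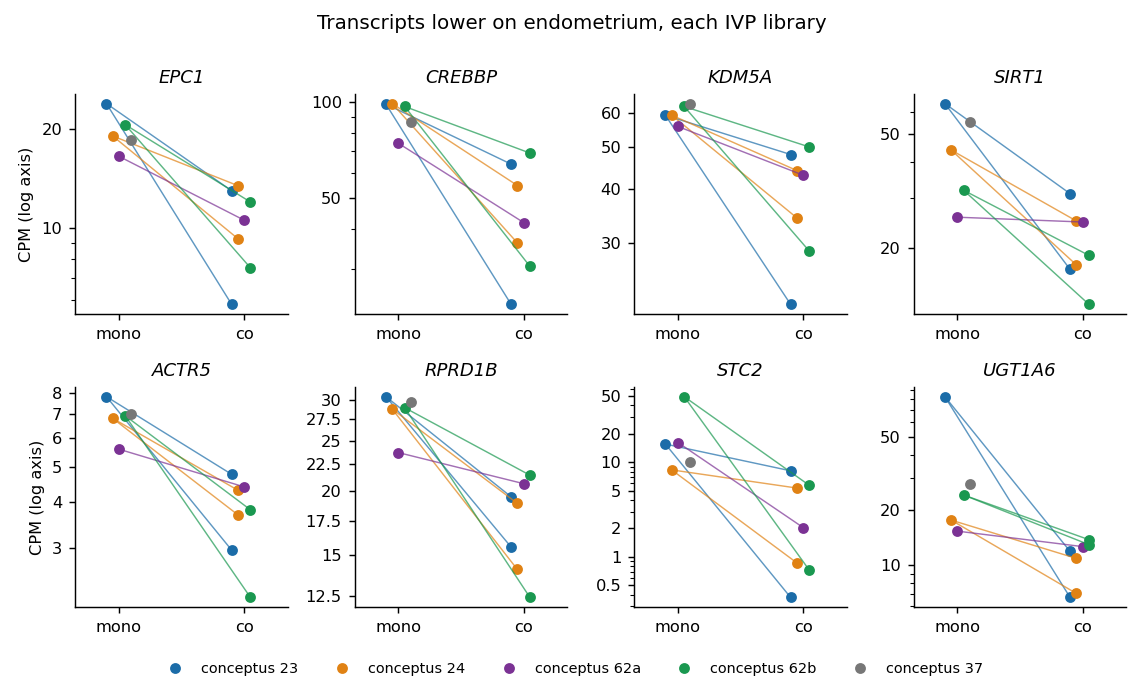
CPM (log axis) of 8 transcripts in the 12 IVP libraries, drawn as for the higher genes, with a line from each mono-culture section to the co-culture sections of the same conceptus. For EPC1, CREBBP, KDM5A, ACTR5, RPRD1B, STC2 and UGT1A6 every co-culture point lies below every mono-culture point, and SIRT1 overlaps.

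TRAIP, ERCC4, PPP4R3A, MKNK1, CYB5D1, PROSER1 and DNASE1L1 were among the 12 lower genes with the smallest p. TRAIP, a ubiquitin ligase of stalled replication forks, had -0.69 (SE 0.16) with no overlap, and ERCC4, the nuclease XPF of excision repair, had -0.84 (SE 0.20). PPP4R3A, a regulatory subunit of protein phosphatase 4, had 79.2 to 99.9 CPM (median 96.3) in mono-culture and 39.4 to 71.7 CPM (median 58.1) in co-culture and MKNK1, the kinase of EIF4E, had 25.8 to 33.5 CPM (median 29.5) in mono-culture and 14.3 to 28.8 CPM (median 16.1) in co-culture. CYB5D1, PROSER1 and DNASE1L1 (a relative of DNase I) had log2 fold changes of -0.97 (SE 0.21), -0.66 (SE 0.15) and -0.86 (SE 0.21). All 7 passed FDR without conceptus 62a in edgeR, with adjusted p-values from 0.0109 (MKNK1) to 0.0371 (TRAIP), and with summed sections MKNK1 and DNASE1L1 did not (0.0737 and 0.0917). Of 18 genes of the p53 response 7 were lower and 0 higher, with a median of -0.40 and 7 lower within 4 of 4 conceptuses. SESN2, a stress-induced inhibitor of mTORC1, had -0.67 (SE 0.18), the phosphatase TIGAR -0.83 (SE 0.25) and EI24, an ER protein of autophagy, -0.65 (SE 0.18). Cell cycle genes had 5 of 57 higher and 7 lower (median 0.03), near the shares of all genes (8.59% higher and 9.69% lower). Among them were the phosphatase CDC25C at -0.80 (SE 0.22), CDCA8 of the chromosomal passenger complex at -0.41 (SE 0.14) and cyclin CCNA2 at 0.45 (SE 0.15).

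Among genes with a symbol, a mean of at least 2 CPM, an unadjusted p under 0.01 and lower levels within all 4 conceptuses, the 6 largest negative changes were those of STC2, FIBIN, DPYSL2, ADM2, UGT1A6 and FMN1. STC2, the secreted glycoprotein stanniocalcin 2, had 15.6, 8.33, 10.1, 16.2 and 49.5 CPM in the mono-culture sections of conceptuses 23, 24, 37, 62a and 62b, and 8.14 and 0.373 CPM for conceptus 23, 0.865 and 5.35 CPM for conceptus 24, 2.04 CPM for conceptus 62a and 0.722 and 5.70 CPM for conceptus 62b in co-culture. Each co-culture section was below each mono-culture library, and within 23, 24, 62a and 62b the change was -3.14, -1.94, -2.98 and -4.59. Conceptus 62a thus moved with the others for STC2, and the log2 fold change was -2.59, SE 0.63 (adjusted p 0.0513 in edgeR without 62a). ADM2, a peptide of the calcitonin family, had 9.07 to 47.6 CPM (median 13.4) in mono-culture and 3.06 to 13.2 CPM (median 6.04) in co-culture. UGT1A6, a glucuronosyltransferase that the aryl hydrocarbon receptor induces, had 15.4 to 82.7 CPM (median 24.1) in mono-culture and 6.70 to 13.8 CPM (median 11.9) in co-culture, without overlap. CYP1A1, another target of that receptor, was above 10 CPM only in the mono-culture sections of 23 (22.5 CPM) and 37 (11.0 CPM), and was higher, not lower, within conceptus 62b (0.87). FIBIN had 0.515 to 7.59 CPM (median 3.97) in mono-culture and 0 to 3.34 CPM (median 0.256) in co-culture, DPYSL2, a microtubule-binding protein, had 0.582 to 17.8 CPM (median 4.76) in mono-culture and 0.547 to 2.52 CPM (median 1.77) in co-culture and the actin-nucleating formin FMN1 had 1.42 to 8.33 CPM (median 3.74) in mono-culture and 0.404 to 4.73 CPM (median 1.04) in co-culture. The highest DPYSL2 and FMN1 levels came from conceptus 37 (17.8 and 8.33 CPM), which had no co-culture library of conceptus tissue. Of these 6 genes FIBIN passed FDR without conceptus 62a (adjusted p 0.027 in edgeR), and with summed sections it did not (0.287).

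Low-oxygen genes differed between conceptuses and, in 62b, between wells. The list had medians of 0.72, 0.60 and 0.35 within 23, 24 and 62b and -0.77 within 62a, with 6 of 34 genes higher and 2 lower at an unadjusted p under 0.05 in the group comparison (median 0.24, and 0.01 with the TMM covariate). By section, the median of 62b differed from its mono-culture section by -0.07 on uterus 69 and by 0.73 on uterus 70, and those of 23 and 24 by 0.53 to 0.95. ADM, the vasodilator adrenomedullin, had 14, 38.7, 37.2, 228 and 55.1 CPM in the mono-culture sections of conceptuses 23, 24, 37, 62a and 62b, and 104 and 273 CPM for conceptus 23, 347 and 187 CPM for conceptus 24, 201 CPM for conceptus 62a and 298 and 250.1 CPM for conceptus 62b in co-culture. The mono-culture section of 62a held about as much ADM as the co-culture sections. The log2 fold change of ADM was 1.67 (SE 0.53), and 2.76 without conceptus 62a, where it passed FDR (adjusted p 0.0223 in edgeR). BHLHE40, a repressor that low oxygen induces, had 137 to 388 CPM (median 201) in mono-culture and 226 to 997 CPM (median 727) in co-culture and passed FDR without 62a (adjusted p 0.027 in edgeR). With summed sections ADM and BHLHE40 did not pass (adjusted p 0.196 and 0.0677 in edgeR). In the list of glycolysis and glucose transport 7 of 36 genes were higher and 1 lower. The transketolase TKT, of the linked pentose phosphate pathway, had 1.05 (SE 0.29), the lactate dehydrogenase LDHB 0.81 (SE 0.22) and PFKFB2, which sets fructose 2,6-bisphosphate, -0.80 (SE 0.23).

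Immediate early genes had 9 of 37 higher and 1 lower (median 0.44). FOS, a subunit of AP-1, had 11.4, 26.7, 18.1, 38.1 and 24.4 CPM in the mono-culture sections of conceptuses 23, 24, 37, 62a and 62b, and 20.8 and 88.1 CPM for conceptus 23, 58.7 and 32.0 CPM for conceptus 24, 66.1 CPM for conceptus 62a and 121 and 57.0 CPM for conceptus 62b in co-culture, with all 4 conceptuses higher on average. Its log2 fold change was 1.42 (SE 0.37), and those of KLF10 and MAFF were 0.92 (SE 0.29) and 1.18 (SE 0.41). SNAI1, a zinc finger repressor of epithelial genes, had 1.03 (SE 0.26). The keratins KRT8 and KRT18 had 0.78 (SE 0.26) and 1.2 (SE 0.39) and the desmosome protein PKP3 0.57 (SE 0.20). Beta tubulins TUBB, TUBB2A and TUBB2B had 0.70 (SE 0.22), 0.88 (SE 0.25) and 1.01 (SE 0.35), with reads of the near-identical 2A and 2B genes open to being split. FTH1, the ferritin heavy chain, had 0.50 (SE 0.18). PTGES3, an HSP90 co-chaperone that also carries prostaglandin E synthase activity, had 0.58 (SE 0.19).

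Amino acid and lipid genes had mixed values. Amino acid transporters were lower in 5 of 30 cases and higher in 0, with medians of -0.90, 0.17, -0.43 and -0.23 within 23, 24, 62a and 62b. SLC38A7, a lysosomal glutamine exporter, had -0.79 (SE 0.28), PSPH, the last enzyme of serine synthesis, -1.17 (SE 0.36) and EIF4EBP1, the repressor of EIF4E, 0.61 (SE 0.18). Of 37 genes of cholesterol and fatty acid synthesis, 8 were higher and 1 lower, and 14 were higher within 4 of 4 conceptuses, with a median of 0.33 in IVP and -0.15 in IVD tissue, a difference of lists that was not tested. PMVK, phosphomevalonate kinase, was the lower one at -0.81 (SE 0.26).

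Changes of interferon and immune genes differed between conceptuses. Interferon-stimulated genes had 6 of 45 lower and 1 higher at an unadjusted p under 0.05, where 9.69% of all genes were lower and 8.59% higher. Their median was -0.39, and 0.10 with the TMM covariate, with medians of -0.87, 0.03, -0.01 and -0.36 within 23, 24, 62a and 62b. STAT2, a transcription factor activated by the type I interferon receptor, had -0.57 (SE 0.16), and the immunoproteasome subunit PSMB9 had -1.48 (SE 0.46) from levels of 0.354 to 3.94 CPM (median 1.10) in mono-culture and 0.310 to 1.21 CPM (median 0.519) in co-culture. NFKB1, the p105 precursor of NF-kappa B p50, had 23.4 to 41.2 CPM (median 31.6) in mono-culture and 11.9 to 23.3 CPM (median 19) in co-culture, and TNFAIP3, an inhibitor of that pathway, had 6.12 to 38.5 CPM (median 14.7) in mono-culture and 1.83 to 11.9 CPM (median 4.57) in co-culture. NFKB1 and STAT2 passed FDR without conceptus 62a (adjusted p 0.0293 and 0.0398 in edgeR), and with summed sections NFKB1 passed (0.0481) and STAT2 did not (0.0593). Summed leukocyte markers were 78.8 to 103 CPM in mono-culture, 38.2 to 142 CPM in co-culture and 563 to 1339 CPM in endometrium, and the part of immune cells in these values was not tested. The class II gene BLA-DQB belonged to a single conceptus, with 7.44 and 12.2 CPM in the co-culture sections of 23, 0.416 CPM in its mono-culture section and at most 0.309 CPM in the other 9 libraries. The endometrium of those wells held 107 and 129 CPM (scaled to total counts), and that under the other 5 sections 82.0 to 267 CPM. The log2 fold change was 4.37 (SE 1.28) and rested on conceptus 23. EOMES, a T-box factor, rested on the mono-culture section of 37 (7.47 CPM, and at most 0.180 CPM in the other 11 libraries), as did the collagenase MMP1 (11.2 CPM against at most 0.991 CPM).

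**Figure D4:**
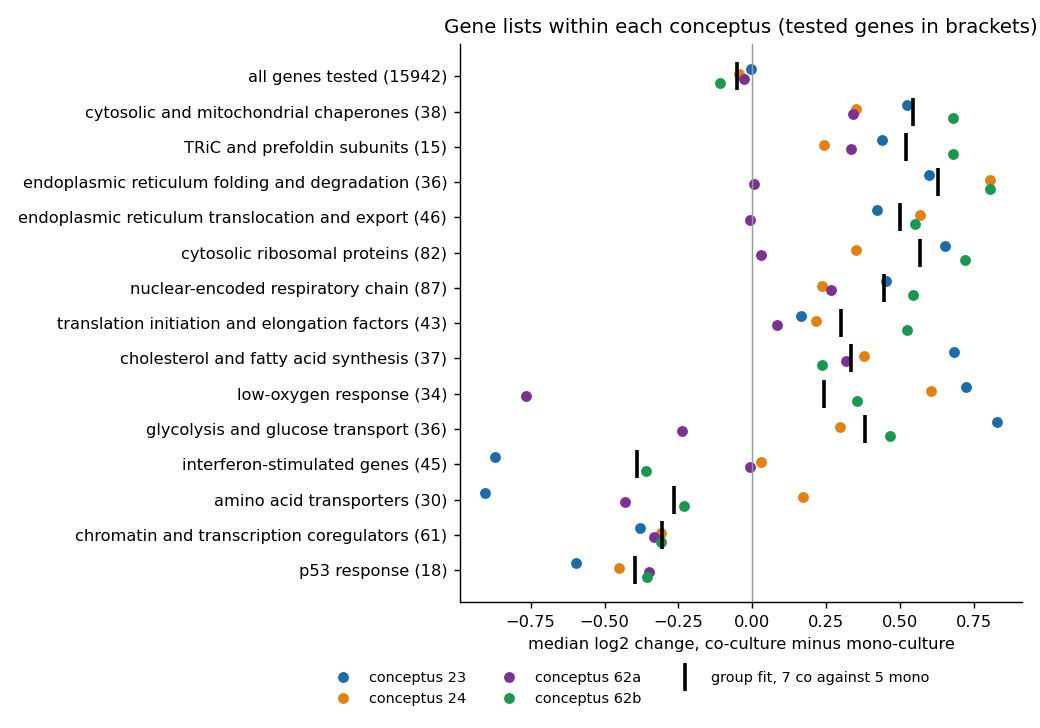
Median log2 change (x) of 14 gene lists and of all genes tested (rows, number of tested genes in brackets), with coloured dots for conceptuses 23, 24, 62a and 62b and a black bar for the group comparison of 7 co-culture and 5 mono-culture libraries. Conceptus 62a sits near 0 for ER genes and cytosolic ribosomal protein genes (whose group median turns from 0.57 to -0.06 with the TMM covariate) and at -0.77 for the low-oxygen list, and with the others at -0.33 for chromatin coregulators.

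Over all genes, 8.59% were higher and 9.69% lower at an unadjusted p under 0.05. Of 30 trophoblast transcription factors 1 was higher and 2 were lower at that p, with medians of 0.92, -0.66, -0.22 and -0.07 within 23, 24, 62a and 62b. Of 39 listed trophoblast secreted proteins 18 were tested, and 0 were at that p. Their median was 1.73 within conceptus 23 and 0.13 in the group comparison, which turned to -0.45 with the TMM covariate.

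The change in IVP tissue was then compared with that in IVD tissue by their difference in the same fit. No gene passed FDR (0 of 15942, smallest adjusted p 1.00, edgeR), 281 were at an unadjusted p under 0.05 (1.76%), and DESeq2 also gave 0. Across 11078 genes the 2 sets of log2 fold changes had a Pearson r of 0.73, with a slope of IVP on IVD of 0.73. The genes farthest on the IVP side included the RNA helicase DDX5, at 0.76 (SE 0.30) in IVP and -0.57 (SE 0.24) in IVD tissue (difference 1.32, SE 0.39), and PARP1, a sensor of DNA breaks, at 0.01 (SE 0.17) and -0.67 (SE 0.14). JMJD8, SGPL1, which cleaves sphingosine 1-phosphate, and the ER protein RRBP1 had differences of 0.57 (SE 0.18), 0.65 (SE 0.22) and 0.67 (SE 0.23). On the other side stood HBA, an alpha globin, at 1.89 (SE 0.83) in IVP and 4.87 (SE 0.78) in IVD tissue (difference -2.97, SE 1.02). Within IVP conceptuses 23, 24, 62a and 62b, HBA changed by 3.56, 2.34, -1.95 and 3.18, so the value of 62a had the opposite sign. SDCBP2, the glucose transporter SLC2A4, the DNA repair protein APLF and ZNF471 had differences of -2.13 (SE 0.84), -1.90 (SE 0.75), -0.80 (SE 0.29) and -0.53 (SE 0.21). Without conceptus 62a the difference of SDCBP2 shrank to -0.37, and that of HBA was -2.27. Those of SLC2A4, APLF and ZNF471 were then -2, -0.85 and -0.40. The mono-culture section of 62a held 8.08 CPM of SDCBP2, against 0.358 to 0.829 CPM in the other mono-culture sections. STC2 was at -0.79 (SE 0.52) in IVD tissue and PIM3 at 0.39 (SE 0.37), with differences of -1.79 (SE 0.81) and 1.2 (SE 0.58) that also missed FDR.

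**Figure D5:**
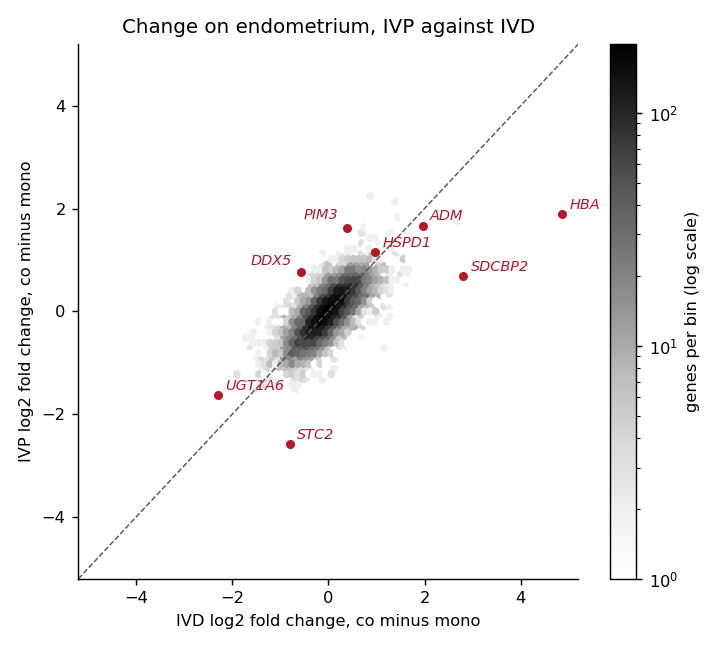
Log2 fold change on endometrium in IVP tissue (y) against IVD tissue (x) for 11078 genes with a mean of at least 2 CPM, shaded by genes per bin (log scale), with a dashed line of equal change and 8 genes marked. The cloud rises in the direction of the line, with an r of 0.73 and a slope of IVP on IVD of 0.73. HBA and SDCBP2 lie far on the IVD side at differences of -2.97 and -2.13. Without conceptus 62a these differences were -2.27 and -0.37.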

How the data were processed

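Poly(A) RNA of conceptus sections and explants was sequenced after 12 h of culture. The authors deposited raw counts of reads per gene. The submitters' processing notes name Trimmomatic, HISAT2, STAR, featureCounts and the build ARS-UCD1.2, and the study's methods assign HISAT2 to conceptus and STAR to endometrium. Versions and the handling of multiply aligned reads were not given in the sources used here, so globin, tubulin, ubiquitin and ribosomal protein genes could share reads with close copies. The conceptus table holds 16149 genes with a smallest mean count of 2.48, so rare genes had been removed. In the endometrial table, read only for markers and BLA-DQB, 28 columns matched no sample and were not used, and 1 row without a gene was dropped.

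All 29 conceptus libraries entered a single edgeR fit (edgeR 4.0.16 under R 4.3.3). Genes were kept by filterByExpr at a count of 10 and a total of 15, factors were TMM, each group had 1 mean, and the quasi-likelihood test was of IVP co- minus mono-culture, and of that change minus the IVD change, with Benjamini-Hochberg adjustment and a threshold of 0.05. CPM used TMM-scaled library sizes unless stated, and log2 CPM a prior count of 1. Log2 fold changes are given with SE. Within a conceptus, the mean log2 CPM of co-culture sections minus its mono-culture section was taken, and 4 conceptuses allow no two-sided p below 0.125. The script was tested on simulated data. No pair of IVP libraries of a group was a copy (lowest chi-square per degree of freedom 231). Deviations from the group means correlated above 0.1 in all 7 pairs of a mono- and a co-culture library from the same conceptus (median 0.575 over the 1000 most variable genes), so the conceptus code of the titles pairs sections. Same-numbered pairs had a median of -0.455, with 2 of 5 above 0.1. The labels do not say that wells were independent beyond these codes, so p-values measure the spread between these sections. Levels were not compared between genes, since CPM is not scaled to length.

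Named genes were the 12 smallest p per direction, the 6 largest changes per direction with one sign in all 4 conceptuses and an unadjusted p under 0.01, 3 members per list at an unadjusted p under 0.01, 5 per side for the difference, BLA-DQB and EOMES, each with a symbol not starting with LOC and, outside the lists, a mean of at least 2 CPM. The members and the 48 lists were chosen with earlier results of these data known. A symbol carried by several gene entries counts once per entry. Alternatives were RLE factors, other filters, IVP libraries alone, conceptus and replicate blocks, summed sections, the TMM factor or a factor of unwanted variation as a covariate, limma 3.58.1, DESeq2 1.42.0, and leaving out each library and conceptus. Those with DESeq2 plus the unwanted factor, the count without conceptus 62a within conceptuses, and the leave-outs, RLE and paired forms of the composition test were chosen after seeing the data.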

Additional observations from a re-analysis of the deposited data

Results flagged for a closer look

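In groups of 5 and 7 libraries, single libraries that lay far from the rest of their group were marked for 114 named genes, the TMM factor and the total count. Of 232 group checks 13 were marked, and chance marks about 1 in 20. Those of the mono-culture section of conceptus 62a (IVP mono-culture replicate 3) were RPRD1B at 23.7 CPM (others 28.8 to 30.4), P4HB at 3680 CPM (others 1510 to 1920), BPTF at 55.3 CPM (others 76.9 to 81.4) and SDCBP2 at 8.08 CPM (others 0.358 to 0.829), each on the side of the co-culture group mean. The co-culture section of 62a (IVP co-culture replicate 5) was marked for GGA2 at 140 CPM (others 279 to 413) and MKNK1 at 28.8 CPM (others 14.3 to 18.3), each on the side of the mono-culture group mean.

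The mono-culture section of conceptus 62b (IVP mono-culture replicate 4) was marked for PROSER1 at 50.1 CPM (others 36.1 to 37.0), PIM1 at 16.6 CPM (others 49.3 to 63.6), EIF4EBP1 at 52.2 CPM (others 80.6 to 87.2) and SLC38A7 at 54.4 CPM (others 23.2 to 27.5). The mono-culture section of 23 (IVP mono-culture replicate 2) held 102 CPM of PSPH (others 28.9 to 39.5) and that of 37 (IVP mono-culture replicate 5) held 11.2 CPM of MMP1 (others 0.594 to 0.991). PROSER1 was at 14 CPM in the co-culture section of 23 on uterus 39 (IVP co-culture replicate 4), against 23.6 to 30.4 CPM in the others.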

How the results depend on the processing

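The number of genes past FDR between IVP cultures, 0 in the reported fit, was 327 with DESeq2, 1629 with DESeq2 and a factor of unwanted variation (chosen after seeing the data), 76 with that factor in edgeR and 107 with summed sections. Leaving out 1 library or conceptus gave 0 to 354, with the values above 0 given in the report. With the conceptus as a block it was 0, and the replicate block also gave 0. It was also 0 with RLE factors, without a filter, with a mean of at least 1 CPM, with IVP libraries alone, with the TMM covariate and with limma voom. The cause of these differences was not tested. The difference between IVP and IVD changes was 0 in each fit run, and could not be fitted from IVP libraries alone or with the replicate block. The count of genes that went one way within 4 of 4 conceptuses was 3659, and 2818 to 3664 with a prior count of 5, RLE factors, uteri 14 and 69 alone or a mean of at least 1 CPM. It was 7555 within the 3 conceptuses other than 62a, where fewer signs must match. The composition difference of -0.30 was -0.32 with RLE factors (exact permutation p = 0.0341) and ran from -0.38 to -0.25 without single libraries, where p was above 0.05 for 8 of 12 left out. These permutations do not pair sections, and paired by conceptus the difference was -0.24 (exact sign-flip p = 0.25, at least 0.12 by design), with conceptus 62a at 0.09 (TMM and RLE). No named gene changed sign in the alternatives that gave it a value, 29 for 103 genes, 27 for the 10 named for the difference and 26 for EOMES. Most of these genes were chosen for their values in these same libraries, which the alternatives refit. A kept sign is therefore not independent support. Of the 104 named for their change, 57 passed FDR without conceptus 62a, 62 with DESeq2, 27 with summed sections and 0 with the conceptus as a block.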

Other observations

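Other gene lists gave the following counts at an unadjusted p under 0.05 in the IVP comparison, where 8.59% of all genes were higher and 9.69% lower, so that shares such as 4 of 39, 3 of 38 or 4 of 50 higher lie near the background. Antioxidant enzymes had 4 of 39 higher and 1 lower, with positive medians within conceptuses 23, 24, 62a and 62b (0.40, 0.24, 0.18 and 0.55) and a group median of 0.26 (0.22 with the TMM covariate). Steroid synthesis genes had 3 of 20 higher and 0 lower, and their group median of 0.23 turned to -0.43 with that covariate. Genes of PPAR signalling and lipid uptake had 3 of 38 higher and 1 lower, and genes of autophagy and the lysosome 3 of 35 and 0, against 10 and 1 in IVD tissue, where the difference was not tested. Growth factor and morphogen ligands had 4 of 50 higher and 3 lower, imprinted and IGF-binding genes 2 of 28 and 0, and cytokines and chemokines 0 of 31 and 4. Within conceptuses the mitochondrially encoded chain genes had medians of -0.33, -1.01, 0.80 and -0.56 for 23, 24, 62a and 62b.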
